A study of Mus musculus with 6 samples.

Results

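The 10 integrin chain genes described here are Itgal, Itgae, Itgav, Itga4 and Itga7, which encode α chains, and Itgb2, Itgb7, Itgb1, Itgb3 and Itgb8, which encode β chains. They were taken by symbol from a table of 47725 genes, out of 26 integrin chain genes looked up there, and were chosen by their biological roles with the measured CKBA and DMSO difference of these libraries already in view. The values below therefore describe these genes and are not independent evidence that integrins changed. The libraries came from naive CD4+ T cells of wild type C57BL/6 mice, whose age the labels do not give. All cultures ran for 3 days in medium with 10% serum and were steered towards TH17 cells, the T helper type that secretes IL-17. Every culture received antibodies to CD28 (2 µg/ml), IFN-γ (10 µg/ml) and IL-4 (5 µg/ml) and the cytokines TGF-β1, IL-6 and IL-23, each at 10 ng/ml. One group of 3 libraries held CKBA, named in the study's title as an AKBA derivative, AKBA being a boswellic acid of frankincense resin. The other group of 3 held DMSO, the solvent control. The sources used here give no CKBA dose, and the labels do not say whether replicates were separate cultures or animals, so the spread between them may be technical.

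An integrin is a membrane receptor built of 1 α and 1 β chain, and the pairing decides which ligand it holds. On T cells, αL with β2 forms LFA-1, which binds ICAM adhesion molecules on other cells. The α4 chain with β7 binds MAdCAM-1 on gut vessels, αE (CD103) with β7 binds E-cadherin on epithelium, and α4 with β1 (VLA-4) binds VCAM-1 and fibronectin. Several αv integrins, αvβ8 and αvβ6 above all, release active TGF-β from its latent complex, and TGF-β is itself an inducer of αE in T cells.

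Total counts ran from 19838347 to 25331863 per library. The labels give epidermis as tissue and T cells as cell type. All 9 listed T cell markers were expressed, with a summed level of 3094 to 3171 CPM (counts scaled by TMM library size) with DMSO and 2438 to 2618 CPM with CKBA, whereas 5 of 10 keratinocyte markers, Krt14, Krt1, Krt15, Trp63 and Lor, had no count in any library. The keratinocyte list, mostly Epcam and Dsp, summed to 15.7 to 16.9 CPM with DMSO and 17.7 to 25.5 CPM with CKBA. All 6 TH17 markers were lower with CKBA, their sum running from 1360 to 2094 CPM with DMSO and from 276 to 387 CPM with CKBA. Markers of CD8 T and NK cells summed to 119.9 to 134 CPM with DMSO and 67.8 to 75.5 CPM with CKBA, of which Klrd1 gave 86.3 and 36.5 CPM on average, while Eomes in that list was higher with CKBA (1.28 and 6.05 CPM). The fibroblast and endothelium list, nearly all Pecam1, summed to 42.9 to 45.7 CPM with DMSO and 18.6 to 34.7 CPM with CKBA. The summed B cell markers lay at 109 to 179 CPM with DMSO, at 257 and 242 CPM in CKBA replicates 1 and 2 and at 110.4 CPM in CKBA replicate 3, and the part of any of these lists in the integrin values was not tested. Replicates 1 and 2 of each group lay close together and replicate 3 stood apart, with a chi-square per gene of 2.84 and 3.34 between replicates 1 and 2 against 34.5 to 37.8 between replicate 3 and either of them. Each difference is therefore also given within replicate numbers.

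All 10 chains had at least 22 counts in every library and entered the test across 13928 genes (edgeR's quasi-likelihood F test, Benjamini-Hochberg adjustment over all of them, threshold 0.05). Of the 10, 5 passed it: Itgav and Itgb1 were higher with CKBA, and Itga4, Itga7 and Itgb7 were lower. Over all genes 17.1% passed, 7.86% higher and 9.23% lower, but the members were chosen with this contrast known and nothing is read from the difference in share. The same 5 chains were those whose groups did not overlap, which held for 36.6% of all genes. The median log2 fold change was -0.29 over the members and 0.01 over all genes. With the replicate number as a block, 5 chains again passed, with Itgb3 in place of Itga7, against 28.2% of all genes. When the libraries numbered 1 and 2 were added up within a group, 0 of the 10 passed, against 0.732% of all genes. Without the third replicates 8 of the 10 passed, against 52.8% of all genes.

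**Figure D1:**
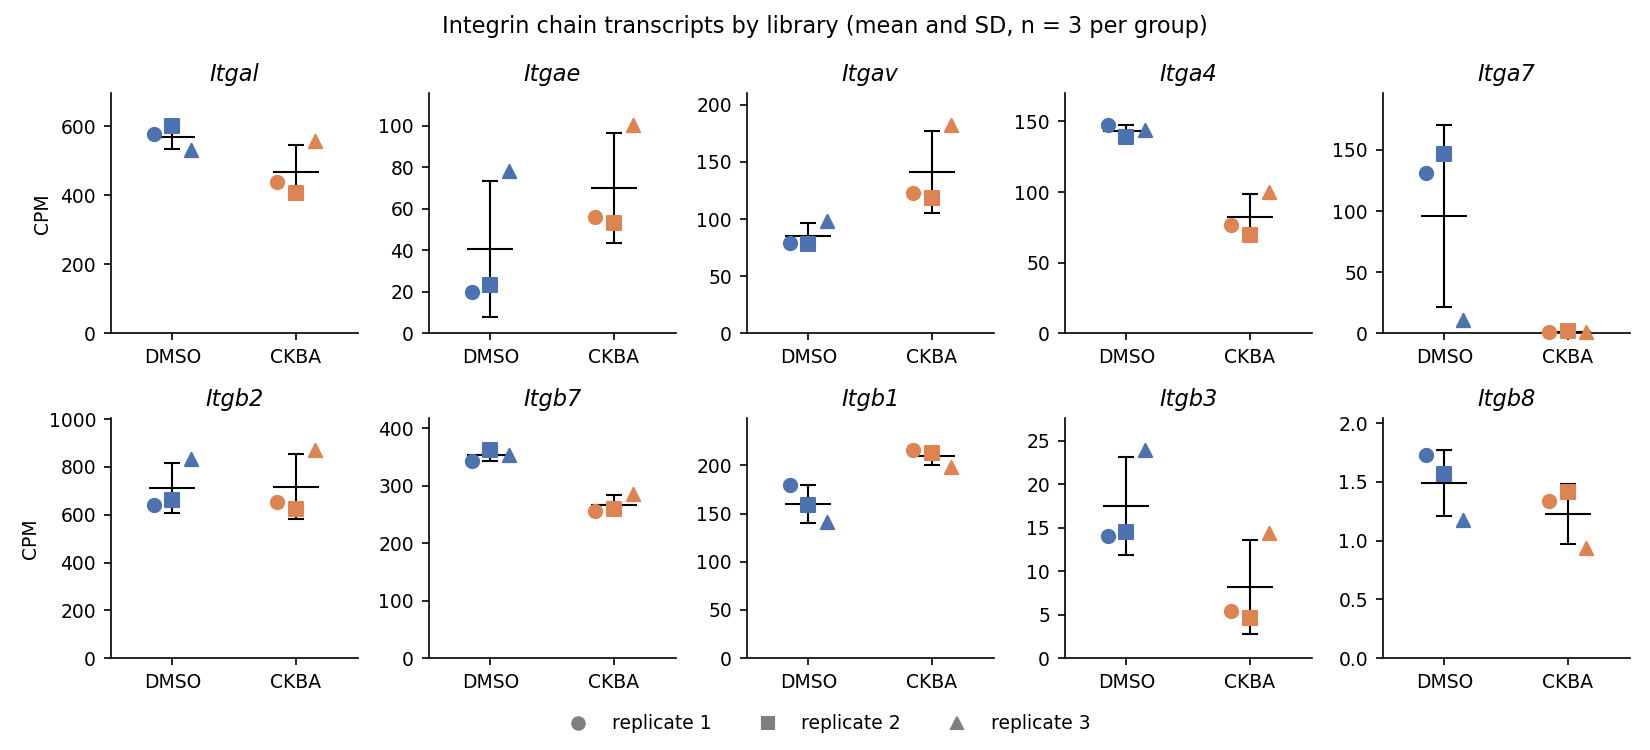
CPM of each integrin chain in the 6 libraries, with circles, squares and triangles for replicates 1, 2 and 3, and bars for mean and SD of 3 libraries. Itga4, Itga7 and Itgb7 lie lower and Itgav and Itgb1 higher in all 3 CKBA libraries, and in the other 5 panels the groups overlap.

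Levels between genes were compared per length, on the authors' FPKM (fragments scaled by transcript length and library size). The β chains formed an order with no overlap between neighbours over the 6 libraries. Itgb2 stood first at 203 to 289 FPKM, followed by Itgb7 at 91.7 to 132 FPKM, Itgb1 at 35.5 to 52.0 FPKM, Itgb3 at 0.79 to 4.18 FPKM and Itgb8 at 0.09 to 0.15 FPKM. Among the α chains, Itgal led at 61.7 to 90.6 FPKM, clear of the others. The remaining 4 overlapped their neighbours in the order, with Itgae at 4.32 to 22.2 FPKM, Itga7 at 0.27 to 36.2 FPKM, Itgav at 7.21 to 17.2 FPKM and Itga4 at 4.95 to 10.6 FPKM. Itgal made up 51.1% to 57.0% of the FPKM summed over all 18 α chains in every library, and Itgb2 made up 54.9% to 64.6% of the sum over all 8 β chains. Transcripts for the α and the β chain of LFA-1 were thus the most abundant of their kind in every library of either group.

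**Figure D2:**
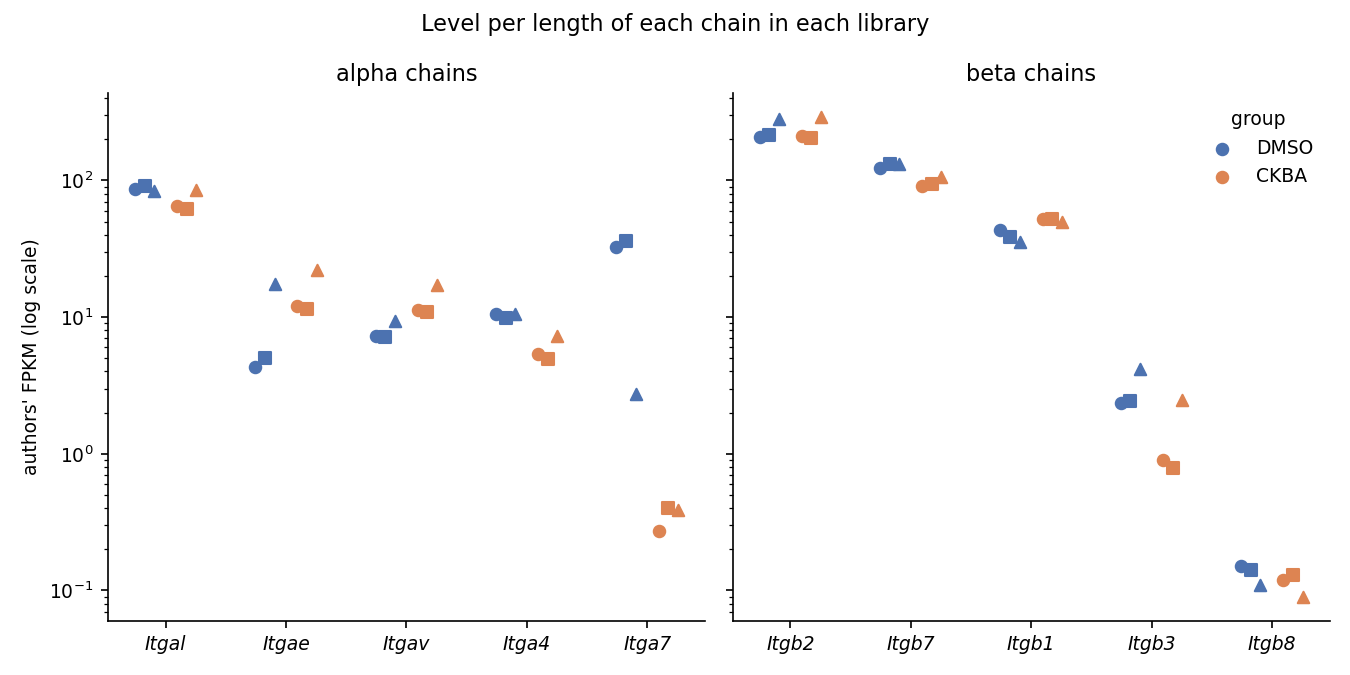
The authors' FPKM of each chain in every library on a log axis, α chains on the left and β chains on the right, with replicates 1, 2 and 3 as circles, squares and triangles. Itgal and Itgb2 are highest in their panels, and Itga7 spans the widest range, from 0.27 to 36.2 FPKM.

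The LFA-1 chains did not pass the test. Itgal, the αL chain (ENSMUSG00000030830, GRCm38 chromosome 7, 127296260 to 127335138, plus strand), stood at 577, 601 and 533 CPM with DMSO, in the order of replicate numbers used throughout, and at 438, 408 and 558 CPM with CKBA. The groups overlapped through CKBA replicate 3, which lay above DMSO replicate 3. Its log2 fold change of CKBA over DMSO was -0.29 ± 0.12 (SE; edgeR adjusted p = 0.146). Within replicate numbers the log2 differences were -0.40, -0.56 and 0.07, and without CKBA replicate 3 the change was -0.43 and passed (edgeR adjusted p = 0.00461), which leaving out any other single library did not give (0.127 to 0.407).

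Itgb2, the β2 chain that αL shares with the myeloid integrin αM (ENSMUSG00000000290, chromosome 10, 77530252 to 77565708, plus strand), stood at 641, 662 and 833 CPM with DMSO and at 654, 624 and 872 CPM with CKBA. The third library was highest in either group, and the groups covered nearly the same range. The log2 fold change was 0.01 ± 0.15 (edgeR adjusted p = 0.975). The ratio of Itgal to Itgb2 FPKM was 0.419 and 0.422 in DMSO replicates 1 and 2 and 0.297 to 0.311 in the other 4 libraries, DMSO replicate 3 among them. Itgam, which encodes αM, did not exceed 0.80 CPM in any library.

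The chains of the gut-homing pair α4β7 were both lower with CKBA. Itga4 (ENSMUSG00000027009, chromosome 2, 79255426 to 79333123, plus strand) stood at 147, 139 and 144 CPM with DMSO and at 76.4, 69.5 and 100.4 CPM with CKBA. The DMSO libraries lay close together, and CKBA replicate 3 was the least reduced. The mean was 143 ± 4.39 CPM with DMSO and 82.1 ± 16.2 CPM with CKBA (SD, n = 3 each), which gives a log2 fold change of -0.80 ± 0.13 (edgeR adjusted p = 0.00764) and a 1.74-fold lower level. It was lower within all 3 replicate numbers, by log2 differences of -0.95, -0.996 and -0.52. The call remained whichever library was left out and was lost with replicates 1 and 2 summed (edgeR adjusted p = 0.144).

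Itgb7, the partner of both α4 and αE (ENSMUSG00000001281, chromosome 15, 102215995 to 102231944, minus strand), stood at 343, 363 and 354 CPM with DMSO and at 257, 259 and 286 CPM with CKBA. All CKBA libraries lay below all DMSO libraries, by a smaller step than for Itga4. Its mean was 353 ± 9.97 CPM against 267 ± 16.0 CPM, which gives a log2 fold change of -0.40 ± 0.07 (edgeR adjusted p = 0.0104). Within replicate numbers the log2 differences were -0.42, -0.49 and -0.31. Leaving out the second DMSO library, or the first or second of CKBA, ended the call (edgeR adjusted p of 0.0652, 0.0608 and 0.0627), and so did summing replicates 1 and 2 (0.239).

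The DNA just before the starts of these genes is shown because both were lower together. Each sequence is the 250 bases upstream of the gene start in RefSeq (GRCm38.p6), read 5′ to 3′ on the gene's strand. For Itgb7 that start differs from the position given above, so the last bases of its window lie within the span given for the gene. Capitals mark TGTGGT or its reverse complement ACCACA, the core motif of RUNX factors.
Itga4, chr2:79255176-79255425, plus strand: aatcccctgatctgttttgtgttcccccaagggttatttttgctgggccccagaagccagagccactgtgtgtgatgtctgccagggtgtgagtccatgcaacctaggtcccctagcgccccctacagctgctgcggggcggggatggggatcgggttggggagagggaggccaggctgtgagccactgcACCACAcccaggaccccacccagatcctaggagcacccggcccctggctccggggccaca
Itgb7, chr15:102231936-102232185, minus strand: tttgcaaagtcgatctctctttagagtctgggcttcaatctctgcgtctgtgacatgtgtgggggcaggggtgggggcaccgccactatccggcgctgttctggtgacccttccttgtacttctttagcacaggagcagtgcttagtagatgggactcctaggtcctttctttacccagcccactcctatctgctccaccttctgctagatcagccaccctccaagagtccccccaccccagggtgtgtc
The Itga4 window held 1 such match, which begins 60 bases before the gene start, and the Itgb7 window held none. The motif was present in 14% of 32851 promoter windows of that length, searched on both strands. Motifs of STAT factors (TTCNNNGAA), AP-1 (TGANTCA), ETS factors (CCGGAA), SMAD factors (GTCTAGAC) and the ATF4 composite site (TGATGCAAT) matched in neither window, against 7.02%, 6.75%, 12%, 0.167% and 0.167% of all windows. RefSeq windows were matched for 5 of the 10 chains, Itga4, Itgav, Itgb1, Itgb7 and Itgb8, and a match or its absence describes these letters only.

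Itgae, the αE chain or CD103 (ENSMUSG00000005947, chromosome 11, 73090583 to 73147446, plus strand), went the other way from its partner but did not pass the test. It stood at 19.98, 23.4 and 78.3 CPM with DMSO and at 55.9, 53.2 and 100.5 CPM with CKBA. DMSO replicate 3 lay above CKBA replicates 1 and 2, so the groups overlapped, and replicate 3 was the highest library of each group. The log2 fold change was 0.78 ± 0.51 (edgeR adjusted p = 0.325). Within replicate numbers CKBA was higher 3 times, by 1.48, 1.19 and 0.36 on the log2 scale. Without DMSO replicate 3 the change was 1.69 and passed (edgeR adjusted p = 0.00717). Leaving out any of the other 5 libraries gave no call, and the change went down to 0.43 without CKBA replicate 3 (edgeR adjusted p = 0.708). With the block it was 0.99 (edgeR adjusted p = 0.0647). Haspin is a mitotic kinase gene on the opposite strand within the span of Itgae. It stood at 28.7, 27.9 and 39.5 CPM with DMSO and at 44.4, 46.4 and 43.4 CPM with CKBA, without overlap. Its log2 fold change was 0.48 (edgeR adjusted p = 0.0501), in the same direction as Itgae. It overlaps Itgae from 73135485 to 73138294, and strand was not stated, so reads from that stretch may have been assigned to either gene.

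The levels of the α chains that pair with β7 were set side by side within each library, with no test. The ratio of Itgae to Itga4 FPKM was 0.413, 0.514 and 1.66 with DMSO and 2.23, 2.34 and 3.05 with CKBA. Itga4 was the more abundant transcript of the pair in DMSO replicates 1 and 2, and Itgae in the other 4 libraries. As a share of the FPKM of all α chains, Itgae took 2.56%, 2.85% and 11.4% with DMSO and 10.4%, 10.5% and 13.7% with CKBA. Itgb7 took 29.2% to 33.7% of the β chain FPKM with DMSO and 23.5% to 26.8% with CKBA. In bulk RNA, fewer cells carrying a chain and less of its RNA per cell cannot be told apart.

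Itgb1, the β1 chain shared by the fibronectin, collagen and laminin receptors (ENSMUSG00000025809, chromosome 8, 128685654 to 128733200, plus strand), was higher with CKBA. It stood at 179.9, 159 and 141 CPM with DMSO and at 217, 213 and 199 CPM with CKBA. Every CKBA library exceeded every DMSO library, and replicate 3 was the lowest of each group. The mean was 160.03 ± 19.5 CPM with DMSO and 209 ± 9.43 CPM with CKBA, which gives a log2 fold change of 0.39 ± 0.10 (edgeR adjusted p = 0.0332), with 0.27, 0.42 and 0.50 within replicate numbers. This call too ended on leaving out the second DMSO library, or the first or second of CKBA (edgeR adjusted p of 0.129, 0.117 and 0.115), and on summing replicates 1 and 2 (0.255).

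As a share of the β chain FPKM, Itgb1 took 11.5%, 9.96% and 7.82% with DMSO and 14.6%, 14.8% and 11.02% with CKBA, so that on this scale the groups overlapped.

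Itga7, the α7 chain of the laminin receptor α7β1, best known from skeletal muscle (ENSMUSG00000025348, chromosome 10, 128933818 to 128958282, plus strand), showed the largest difference of the 20 chains tested. It stood at 131, 147 and 10.7 CPM with DMSO and at 1.09, 1.61 and 1.56 CPM with CKBA, from counts of 2573, 2990 and 228 against 22, 33 and 40. DMSO replicate 3 lay 12.9-fold below the mean of the other DMSO libraries and still 6.87-fold above CKBA replicate 3. The mean was 96.1 ± 74.3 CPM against 1.42 ± 0.289 CPM, which gives a log2 fold change of -6.07 ± 0.97 (edgeR adjusted p = 0.00685), with -6.91, -6.51 and -2.78 within replicate numbers. Itga7 supplied 19.2% and 20.4% of the α chain FPKM in DMSO replicates 1 and 2, second to Itgal. The share was 1.78% in DMSO replicate 3 and 0.235% to 0.363% with CKBA.

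The direction for Itga7 held in every replicate number, while its call depended on the fit. With the replicate block the change was -5.68 (edgeR adjusted p = 0.0639). Without CKBA replicate 1, 2 or 3 it was -5.91, -6.15 and -6.14 (edgeR adjusted p of 0.0894, 0.0852 and 0.0768), and with replicates 1 and 2 summed it was -5.70 (0.218). With no filter on low counts the change was -6.06 (edgeR adjusted p = 0.0798). The authors' deposited table lists a log2 fold change of -5.70 and an FDR of 1.2e-15 for Itga7.

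Other laminin-binding α chains did not share one pattern. Itga3, which encodes α3 and was the 1 chain outside the 10 to pass the test, stood at 57.5, 61.0 and 35.9 CPM with DMSO and at 19.8, 19.7 and 11.4 CPM with CKBA. It fell by 1.61 ± 0.26 on the log2 scale (edgeR adjusted p = 0.0074), by nearly equal steps of -1.54, -1.63 and -1.66 within replicate numbers. Its call was lost with replicates 1 and 2 summed (edgeR adjusted p = 0.127). Itga6, which encodes α6, stood at 82.6, 87.0 and 130.4 CPM with DMSO and at 100.4, 92.6 and 159.5 CPM with CKBA, a log2 fold change of 0.23 ± 0.24 (edgeR adjusted p = 0.545, with 0.0442 under the block and 0.767 with replicates summed).

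Itgav, the αv chain of the vitronectin receptors and of the TGF-β activating integrins (ENSMUSG00000027087, chromosome 2, 83724397 to 83806916, plus strand), was higher with CKBA. It stood at 79.4, 78.2 and 98.1 CPM with DMSO and at 122.8, 118 and 182 CPM with CKBA. The groups did not overlap, and replicate 3 was the highest of each. The mean was 85.2 ± 11.2 CPM with DMSO and 141 ± 35.9 CPM with CKBA, which gives a log2 fold change of 0.73 ± 0.18 (edgeR adjusted p = 0.0283), with 0.63, 0.59 and 0.89 within replicate numbers. Leaving out the first or second DMSO library or the first CKBA library ended the call (edgeR adjusted p of 0.114, 0.119 and 0.0588), as did summing replicates 1 and 2 (0.197) or testing with no filter on low counts (0.0612). In limma on log2(FPKM + 0.1) the adjusted p was 0.0555.

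Its share of the α chain FPKM was 4.35%, 4.07% and 6.07% with DMSO and 9.77%, 9.93% and 10.6% with CKBA, with no overlap.

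Among the β chains of the list, Itgb3 and Itgb8 were scarce. Their products can pair with αv but are not its only β partners, and Itgb1 of the same list lay at 35.5 to 52.0 FPKM. Itgb3, which encodes β3 (ENSMUSG00000020689, chromosome 11, 104608000 to 104670476, plus strand), stood at 14.1, 14.5 and 24.0 CPM with DMSO and at 5.43, 4.68 and 14.4 CPM with CKBA. Replicate 3 was again highest in either group, and CKBA replicate 3 reached the level of DMSO replicates 1 and 2. The log2 fold change was -1.09 ± 0.43 (edgeR adjusted p = 0.117), and the differences within replicate numbers were -1.37, -1.63 and -0.74. With the replicate block it was -1.21 ± 0.18 and passed (edgeR adjusted p = 0.00302), as it did without CKBA replicate 3 at -1.79 (0.00476). Leaving out any of the other 5 libraries gave no call, and the change was -0.79 without DMSO replicate 3 (edgeR adjusted p = 0.253). The authors' deposited table gives an FDR of 0.0308.

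Itgb8, which encodes β8 (ENSMUSG00000025321, chromosome 12, 119158022 to 119238802, minus strand), was near the lower limit of what was tested, with 34, 32 and 25 counts with DMSO and 27, 29 and 24 with CKBA. That is 1.73, 1.57 and 1.18 CPM against 1.33, 1.41 and 0.94 CPM, and the groups overlapped. The log2 fold change was -0.28 ± 0.31 (edgeR adjusted p = 0.575), so no difference was detectable at this depth. The ratio of Itgav to Itgb3 FPKM, 2.24 to 3.09 with DMSO, was 12.4, 13.8 and 6.95 in CKBA replicates 1, 2 and 3. Itgb3 is also a platelet gene. Of 9 platelet markers 7 had means under 1 CPM, Gp6 and Treml1 had no count, and Pf4 did not exceed 0.15 CPM. The exceptions were Itga2b, with group means of 3.49 (DMSO) and 3.63 CPM (CKBA), and Gp1ba, with 2.71 and 1.57 CPM. The summed list ranged from 6.07 to 6.66 CPM in DMSO libraries and from 4.55 to 6.76 CPM in CKBA libraries. Whether platelets contributed to the Itgb3 values was not tested.

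**Figure D3:**
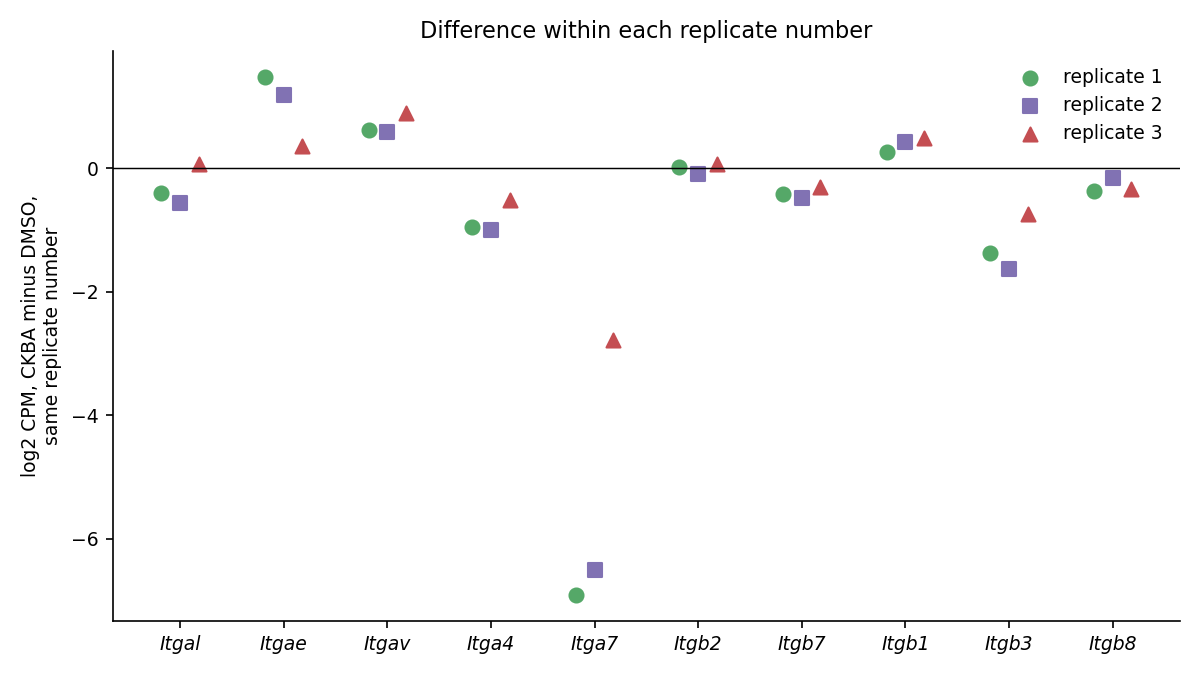
Difference in log2 CPM, CKBA minus DMSO, between the libraries that share a replicate number, for each integrin chain (circles, squares and triangles for replicates 1, 2 and 3). Replicate 3 differs most from replicates 1 and 2 for Itga7, at -2.78 against -6.91 and -6.51. For Itgb1, replicate 2 lies nearer to replicate 3 than to replicate 1. For Itgb2 and Itgb8, replicate 1 lies nearer to replicate 3 than to replicate 2.

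Replicate 3 moved several chains in the same way under DMSO and CKBA. Relative to the mean of replicates 1 and 2, it was 1.24-fold and 1.52-fold for Itgav, 1.28-fold and 1.37-fold for Itgb2, 1.68-fold and 2.85-fold for Itgb3, and 3.61-fold and 1.84-fold for Itgae, in DMSO and CKBA respectively. For Itgb8 it was lower in both, at 0.714-fold and 0.682-fold. Itga7 differed, at 0.0774-fold with DMSO and 1.16-fold with CKBA, and Itgal also moved in opposite ways, at 0.905-fold and 1.32-fold. Itga4 was nearly level with DMSO, at 1.005-fold, and 1.38-fold with CKBA.

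The other 16 integrin chain genes give the setting for the 10. Of these, 10 were abundant enough to test, 1 was lower (Itga3) and 0 were higher, with a median log2 fold change of -0.17. With the replicate block 2 were lower and 1 higher, Itga5 joining Itga3 and Itga6 the higher one. Itga5, which encodes the α5 chain of the fibronectin receptor, stood at 25.2 to 30.1 CPM with DMSO and 19.8 to 25.9 CPM with CKBA, a log2 fold change of -0.31 ± 0.13 (edgeR adjusted p = 0.14, with 0.0321 under the block and 0.522 with replicates summed). The collagen receptor chains Itga1 and Itga2 had log2 fold changes of 0.89 ± 0.36 and -1.28 ± 0.41, at means under 1.6 CPM in either group (edgeR adjusted p = 0.132 and 0.0685). Itga2b, Itga10, Itgax, Itgb4 and Itgb5 had log2 fold changes of 0.06, -0.02, -0.13, -0.90 and -0.20 and did not pass. The 6 not tested, Itga8, Itga9, Itga11, Itgad, Itgam and Itgb6, had at most 17 counts in a library.

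**Figure D4:**
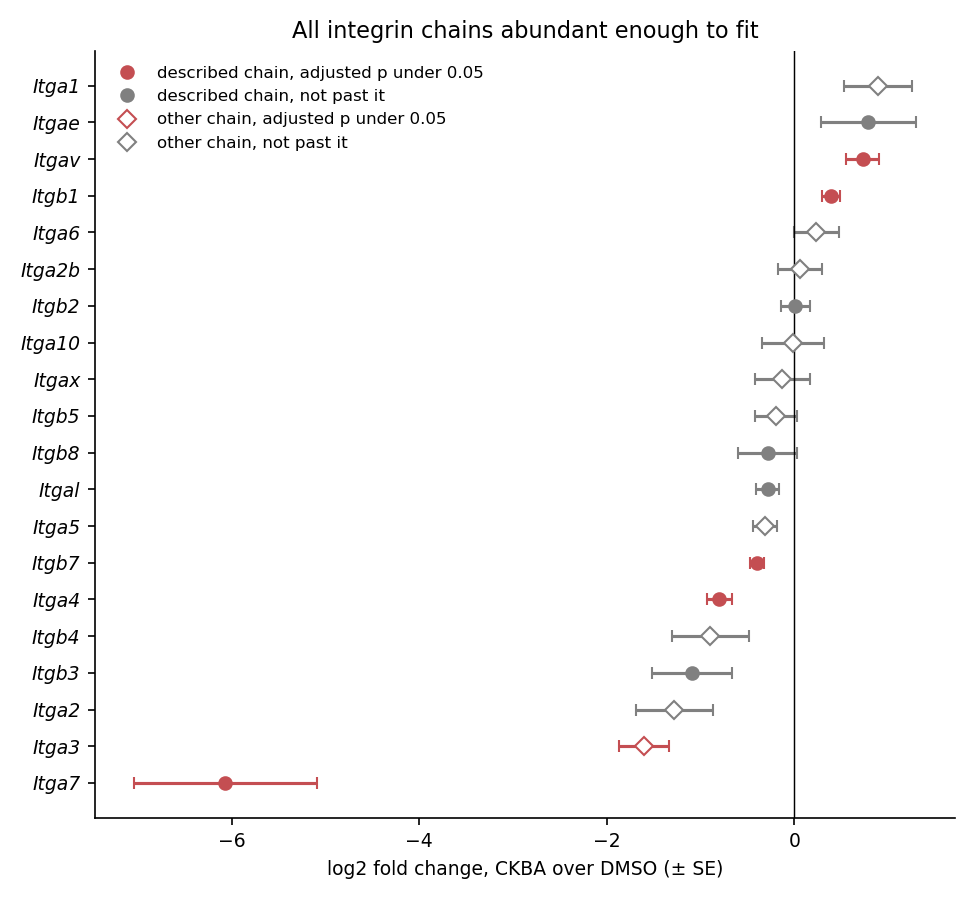
Log2 fold change of CKBA over DMSO with its SE for the 20 integrin chain genes tested, filled circles for the 10 described chains and open diamonds for the others, red where the adjusted p was under 0.05. Itga7 at -6.07 lies far from the rest, which run from -1.61 for Itga3 to 0.89 for Itga1.

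Genes that act with integrins were counted by the same test, on lists chosen with earlier results of these data known. Beside their counts stand the shares over all genes, 7.86% higher and 9.23% lower in the test and 13.8% and 14.4% with the block. With replicates 1 and 2 summed, 0 genes of the first 3 lists passed. Of 28 tested activators and adaptors, 2 were higher and 2 lower, with a median of -0.09, and with the replicate block 2 were higher and 7 lower. Tln1, which encodes talin 1, the adaptor that switches integrins on by binding β tails, fell from 770 ± 37.3 to 589.99 ± 42.5 CPM (log2 fold change -0.38, edgeR adjusted p = 0.0178). Flna, the filamin A gene, fell by 0.51, while Parvg, which encodes γ-parvin of the integrin-linked kinase complex, and Ptk2, which encodes focal adhesion kinase, rose by 0.44 and 0.62 (edgeR adjusted p of 0.0129, 0.00827 and 0.0176). Fermt3, the kindlin 3 gene that leukocyte integrins need for activation, named after its values were seen, had a log2 fold change of -0.36 (edgeR adjusted p = 0.138, with 0.00501 under the block and 0.472 with replicates summed).

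Of 13 tested integrin ligands, 3 were lower and 0 higher, with a median of -0.14. These were Icam2, a ligand of LFA-1, with -0.74, the laminin chain gene Lama5 with -0.65 and Mfge8, a ligand of αv integrins, with -0.60 (edgeR adjusted p of 0.0182, 0.0356 and 0.0389). The Lama5 call was lost with the block (edgeR adjusted p = 0.0939). Among 7 tested genes of latent TGF-β and its activation, 2 were higher and 1 lower, with a median of 0.28, and with the block 3 and 3. Tgfb1 rose by 0.37 and Lrrc32, which encodes GARP, the protein that holds latent TGF-β on T cells, by 0.82, and Tgfb3 fell by 4.64 on the log2 scale (edgeR adjusted p of 0.0127, 0.0133 and 0.00619). Tgfb3 stood at 32.3, 32.6 and 5.13 CPM with DMSO and at 0.543, 1.12 and 1.09 CPM with CKBA, so DMSO replicate 3 was apart from the other DMSO libraries as for Itga7. Its call was lost without any one CKBA library (edgeR adjusted p of 0.0572, 0.0500011 and 0.0615, against a threshold of 0.05) and with no filter on low counts (0.0728).

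Of 20 tested homing and residency genes, 3 were higher and 9 lower, with a median of -0.24, with the block 6 and 9, and with replicates 1 and 2 summed 0 and 2. S1pr1, the receptor that guides exit from lymph nodes, fell by 1.08 on the log2 scale, with means of 238 ± 7.17 CPM under DMSO and 113 ± 12.6 CPM under CKBA (edgeR adjusted p = 6.05e-04). Gpr15, a colon-homing receptor, fell by 1.83, with means of 92.1 ± 11.97 and 25.9 ± 9.96 CPM (edgeR adjusted p = 0.00545). The small intestine homing receptor Ccr9 did not exceed 1.2 CPM. S1pr1 still passed with replicates 1 and 2 summed (edgeR adjusted p = 0.0445), where none of the 10 integrin chains did. Gpr15 did not pass there (edgeR adjusted p = 0.116), nor with no filter on low counts (0.0597). Cd69, Cd44 and Ccr8 were the 3 that rose, by 0.72, 0.87 and 1.55. Runx3, Smad3 and Cxcr6 of the same list were among the 9 called lower in the main test. Of the other list genes named above, the calls of Ptk2, Icam2, Lama5, Mfge8 and Tgfb1 were lost on leaving out replicate 1 or 2 of either group, with edgeR adjusted p of 0.0523 to 0.16, and that of Mfge8 also without CKBA replicate 3 (0.0548). Flna lost its call without DMSO replicate 1 or 2 or CKBA replicate 2 (edgeR adjusted p of 0.0688, 0.0733 and 0.0584), Parvg without DMSO replicate 1 or 2 (0.0524 and 0.0547) and Lrrc32 without DMSO replicate 1 (0.0667). S1pr1 and Gpr15 passed in all 6 such fits. For Tln1, Cd69, Cd44, Ccr8, Runx3, Smad3 and Cxcr6 these fits are not reported here.

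For each chain the gene with the closest profile was looked up among 10081 genes at a mean of at least 5 CPM, by the root mean square difference of centred log2 CPM over the 6 libraries. Itga7 lay furthest from its nearest gene: Enpp2, the autotaxin gene, differed by 0.664, and the next, Tgfb3, by 0.678. The profiles were not scaled, so this measure also tends to grow with the size of a gene's change. Enpp2 stood at 27.3, 23.2 and 1.98 CPM with DMSO and at 0.593, 0.634 and 0.351 CPM with CKBA. Itgae was nearest to Mndal (0.11), Itgb3 to A930024E05Rik (0.124), Itga4 to Fgd3 (0.0411), Itgav to Nrip1 (0.0379) and Itgb7 to Man2a2 (0.0216). The other 4 chains, with changes under 0.4 on the log2 scale, had neighbours at 0.0279 to 0.0435.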

How the data were processed

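RNA from the 6 cultures was extracted with TRIzol and made into libraries with a TruSeq kit, per the labels' protocols; whether strand was kept is not given. The deposited table held expected counts per gene, all whole numbers, which the authors made with RSEM after CASAVA 1.8 on GRCm38, as far as the submitters' processing notes name tools and build. FPKM values of the authors in that table served for levels between genes and for limma. Their deposited log2 fold changes and p-values (FDR) are quoted for a few chains, and the notes name edgeR. No aligner is named in the sources used here. RSEM splits reads shared between genes.

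The test of the counts was that of edgeR 4.0.16 under R 4.3.3 (filterByExpr, TMM, robust quasi-likelihood F test, Benjamini-Hochberg over 13928 genes). CPM used TMM library sizes, and each SE is the log2 fold change over the square root of F. Only the edgeR fit without a block and the DESeq2 fit were tested on simulated data. The simulated libraries were independent, without the likeness of replicates 1 and 2 seen here, so the effect of that likeness was not tested. Alternatives used DESeq2 1.42.0, limma 3.58.1, other filters and size factors, the replicate block and left-out libraries. Replicate numbers were treated as pairs because deviations of same-numbered libraries correlated at 0.244, 0.235 and 0.436 (across genes), although replicates 1 and 2 correlated as well crosswise (0.244 and 0.232). Positions come from GENCODE M21 (GRCm38).

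The members, gene lists and alternatives were chosen with earlier results of these data known. Named genes are the 10 chains, every other tested chain, the 3 called genes of each further list with the smallest adjusted p, and the gene closest in profile to each chain; 1 gene this rule names is not reported here. Other names were added after their values were seen, Tln1, Fermt3, Ccr9, Haspin, Cd69, Cd44, Ccr8, Runx3, Smad3 and Cxcr6 among them.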

Additional observations from a re-analysis of the deposited data

How the results depend on the processing

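The number of integrin chains past the threshold, 2 higher and 3 lower, depended on which libraries entered. Leaving out 1 library at a time gave 0 to 3 higher and 1 to 4 lower chains, against 251 to 1961 higher and 390 to 2014 lower among all genes. With replicates 1 and 2 summed, 0 chains were higher and 0 lower (56 and 54 of all genes). With the third replicate of both groups left out, 3 were higher and 5 lower (3660 and 3728 of all genes). In those fits the 2 libraries of a group may share a culture. With the replicate block the counts were 2 and 3 (1922 and 2009 of all genes), where Itga7 lost and Itgb3 gained its call, and the block changed no other call among the 10 chains. Only 1 chain, Itgb1, was higher without a filter on low counts and in limma on log2(FPKM + 0.1) and log2(FPKM + 1), at 1, 1 and 1. Without that filter 2 chains were lower, and Itga7 lost its call (edgeR adjusted p = 0.0798). The causes were not tested.

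Among the 10 chains, Itgb2 alone changed sign: -0.0081 in both FPKM fits, -0.027 without the third replicates, -0.06 and -0.04 without DMSO replicate 1 and 2, and -0.15 without CKBA replicate 3. Of the other chains, 4 that did not pass in the main test changed sign: Itga2b went to -0.079, -0.02 and -0.12 without the third replicates, DMSO replicate 2 and CKBA replicate 3, Itga6 to -0.050 without CKBA replicate 3 (and up to 0.47 without DMSO replicate 3), Itgax to 0.049 without the third replicates, and Itga10 to 0.10 with replicates summed and to 0.08, 0.19 and 0.14 without the third DMSO, first CKBA and second CKBA library (and down to -0.46 without CKBA replicate 3). Counts of Itgb8, 24 to 34 per library, limit its precision.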
